A study of Homo sapiens with 8 samples.

Results

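Long noncoding RNA (lncRNA) genes are transcribed into RNA that is not translated, and their promoters were examined here for DNA methylation in neuroblastoma (NB), a childhood tumor of the sympathetic nervous system. A promoter was taken as the 1500 bp before and the 1000 bp after the transcription start site (TSS) of the gene, 1 per gene. Of 61221 autosomal genes in GENCODE, release 44, placed on GRCh37, 18229 were lncRNA genes, and 3412 of them were left out because their window overlapped that of a protein-coding gene. The remaining 14817 windows, called lncRNA promoters below, were set against 19229 windows of protein-coding genes. They were chosen by annotation and position, and no methylation value was used.

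Methylated fragments of sheared DNA were captured with the methyl-CpG-binding domain of MBD2 and sequenced (MBD-seq) in 8 established NB cell lines, each as 1 untreated sample. The labels give *MYCN* amplification (MNA) for N206, LAN-2, IMR-32 and CHP-902R, and no amplification, here called *MYCN* single copy, for SK-N-AS, SH-SY5Y, CLB-GA and SJNB-1. Normal tissue was not analysed here, and SH-SY5Y is a subclone of another line. A lncRNA promoter counted as carrying a peak where at least 1 bp of a peak of the line lay in its window, and each peak has a score that grows as its p-value falls, with 50.0 as the lowest.

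In human DNA, methylation sits mainly on cytosines that are followed by a guanine (CpG). Stretches rich in CpG, many of them at promoters, are mostly free of methylation in normal cells, and their methylation goes with a silent gene. Capture by MBD2 needs several methylated CpG close together, so a window with few CpG can hardly give a peak whatever its methylation. For this reason promoters were also read by CpG class. The class is high where a 500 bp stretch has an observed to expected CpG ratio over 0.75 and a GC content over 55%, low where no stretch is over 0.48, and intermediate otherwise.

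Several sequences are shown because they lie under, or in part beside, the peaks that recur most or that divide the *MYCN* groups. Each has 300 bases of GRCh37 in the direction of the gene, 5′ to 3′, centred on the part of the window that the peaks of all lines with a peak share, and every CpG is in capitals. The autosomes have 0.997 CpG per 100 bp. The first 3 are from promoters with a peak in all 8 lines. *LINC01596* (chr4:190802399-190802698, plus strand) runs from 271 bp upstream to 28 bp downstream of the TSS into an exon and holds 13 CpG. *LINC02604* (chr7:66368489-66368788, plus strand) lies 645 to 944 bp downstream of the TSS over an exon and holds 10. The stretch of *MIR924HG* (chr18:37381318-37381617, minus strand), the host gene of a microRNA, is 1032 to 1331 bp upstream of the TSS, in no exon of the gene, and holds 11.
LINC01596: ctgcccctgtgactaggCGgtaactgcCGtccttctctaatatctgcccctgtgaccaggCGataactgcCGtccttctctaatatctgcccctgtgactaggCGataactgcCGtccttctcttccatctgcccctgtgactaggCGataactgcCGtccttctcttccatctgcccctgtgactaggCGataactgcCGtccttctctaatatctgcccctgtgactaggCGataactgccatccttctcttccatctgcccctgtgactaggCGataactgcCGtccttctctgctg
LINC02604: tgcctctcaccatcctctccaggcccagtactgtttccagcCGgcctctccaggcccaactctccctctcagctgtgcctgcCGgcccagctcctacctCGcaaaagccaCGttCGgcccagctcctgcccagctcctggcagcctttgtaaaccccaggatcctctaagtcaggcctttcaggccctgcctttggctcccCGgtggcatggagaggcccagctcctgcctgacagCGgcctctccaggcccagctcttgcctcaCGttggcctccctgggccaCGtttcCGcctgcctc
MIR924HG: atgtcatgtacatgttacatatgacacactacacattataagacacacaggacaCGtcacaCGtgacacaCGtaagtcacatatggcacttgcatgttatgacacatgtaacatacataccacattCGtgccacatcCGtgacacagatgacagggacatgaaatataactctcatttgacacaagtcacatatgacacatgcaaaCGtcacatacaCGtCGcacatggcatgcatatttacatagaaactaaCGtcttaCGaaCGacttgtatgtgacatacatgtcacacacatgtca
The stretch of *LINC01596* is built of a repeated unit: moved by 43 bases along itself, it matched at 93.4% of positions.

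The next comes from a promoter whose peaks divided the groups. *GLUD1P3* (chr10:75491155-75491454, plus strand, 835 to 1134 bp downstream of the TSS, reaching an exon) had peaks in MNA lines. The 12 CpG of *GLUD1P3* all lie in the downstream part of the stretch, beyond the end of the promoter window. The peaks share only 33 bp inside the window, which hold no CpG, and the first bases of the stretch lie before every peak.
GLUD1P3: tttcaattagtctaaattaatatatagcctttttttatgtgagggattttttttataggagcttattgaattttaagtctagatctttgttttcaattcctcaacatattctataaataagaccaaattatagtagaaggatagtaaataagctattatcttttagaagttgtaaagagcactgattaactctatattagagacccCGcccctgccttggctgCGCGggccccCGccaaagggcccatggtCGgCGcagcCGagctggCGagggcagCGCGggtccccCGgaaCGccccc
For contrast, *NBAT1* (chr6:22147273-22147572, minus strand, centred on the TSS), a lncRNA studied in NB, had 13 CpG in the same length and no peak in any line.
NBAT1: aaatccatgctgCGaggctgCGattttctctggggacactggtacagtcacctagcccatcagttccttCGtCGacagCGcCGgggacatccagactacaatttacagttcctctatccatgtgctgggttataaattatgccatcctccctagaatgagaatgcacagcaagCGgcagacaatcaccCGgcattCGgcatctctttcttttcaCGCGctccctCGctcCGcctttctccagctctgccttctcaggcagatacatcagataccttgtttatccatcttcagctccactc

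Of the 14817 lncRNA promoters, 7091 (47.9%) had a peak in at least 1 line and 7726 (52.1%) in none. A peak was found in 4 or more lines at 1801 promoters (12.2%) and in all 8 lines at 137 (0.925%), and 196 protein-coding promoters (1.02%) had a peak in all 8. Most promoters with a peak were thus seen in few lines, and 2608 had one in a single line. In N206 2331 lncRNA promoters (15.7%) carried a peak, in LAN-2 2565 (17.3%), in IMR-32 2551 (17.2%) and in CHP-902R 2517 (17.0%). In SK-N-AS the number was 2076 (14.0%), with 2376 in SH-SY5Y (16.0%), while CLB-GA had 2167 (14.6%) and SJNB-1 1918 (12.9%). The values of the groups overlapped, with N206 below SH-SY5Y.

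Methylation peaks followed CpG content. A peak was found at 25.6% ± 3.58 of high-class, 22.3% ± 2.38 of intermediate-class and 8.88% ± 1.28 of low-class lncRNA promoters (mean ± SD over 8 lines). The high class exceeded the low class by 16.7 percentage points, in 8 of 8 lines (two-sided exact sign-flip permutation test over lines, p = 0.0078, the smallest that 8 pairs can give). Recurrence leaned the same way. Among promoters with no peak, 9.14% were of the high class, and among those with a peak in all 8 lines 40.9% were, with 56 of 137. A peak in all 8 lines was found at 2.92% of the high class (1917 promoters), 1.29% of the intermediate class (5048) and 0.204% of the low class (7852).

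**Figure D1:**
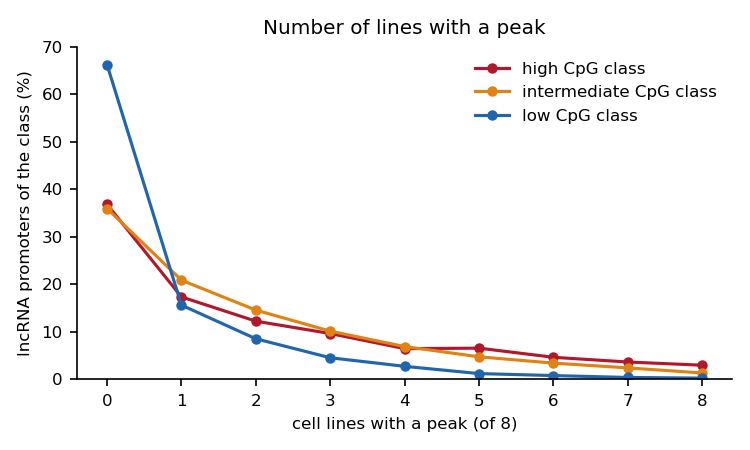
Percentage of lncRNA promoters of each CpG class (vertical axis) by the number of cell lines with a peak (horizontal axis, 0 to 8). No peak was found at 66.3% of the low class, against 36.8% of the high and 36.0% of the intermediate class, and the high class holds the largest share from 5 lines upward.

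Peaks were also more frequent at lncRNA promoters than in windows further upstream, which were not matched for CpG content. In the 12830 lncRNA promoters for which the window 10 kb further upstream overlapped no other gene's window, a peak was found at 15.4% ± 1.53 of the promoters and 11.2% ± 1.22 of the upstream windows, a difference of 4.25 points in 8 of 8 lines (exact sign-flip permutation test, p = 0.0078).

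Over all classes, lncRNA promoters carried a peak slightly less often than protein-coding promoters, at 15.6% ± 1.61 against 16.9% ± 2.42. The difference of -1.30 points was seen in 7 of 8 lines (exact sign-flip permutation test, p = 0.0234, adjusted p = 0.0417). With the window narrowed to 500 bp on each side of the TSS it turned to 1.19 points in favour of lncRNA promoters (exact p = 0.0312). The kinds of gene differ in their CpG content: 12.9% of lncRNA and 64.4% of protein-coding promoters were of the high class, and the median window held 30 and 99 CpG.

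Within the high and intermediate classes the order was reversed, and in the low class it was not. High-class lncRNA promoters carried a peak at 25.6% and high-class protein-coding promoters at 18.1% ± 2.99, a difference of 7.49 ± 1.14 points (SD over lines) in 8 of 8 lines (exact sign-flip permutation test, p = 0.0078, adjusted p = 0.0179). In the intermediate class the difference was 2.13 ± 1.64 points, in 7 of 8 lines (exact p = 0.0156), but it was -0.0335 points (exact p = 0.859) when only scores of 100 or more counted. In the low class it was -0.989 ± 1.22 points, which did not pass the test (exact p = 0.0703). When any annotated transcript start of the gene counted, both differences turned, to -11.8 points in the high and -12.3 in the intermediate class, where a lncRNA gene has 2.48 starts on average and a protein-coding gene 7.36. A number of 451 high-class lncRNA windows overlapped the window of a further transcript start of a protein-coding gene, and without all such windows the high-class difference was 9.40 points. The 2726 high-class lncRNA promoters left out for sharing a window with a coding gene carried a peak at 15.3% ± 3.58. That is not above the 18.1% of high-class protein-coding promoters, so the excess was found only for the 1917 high-class lncRNA promoters kept.

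**Figure D2:**
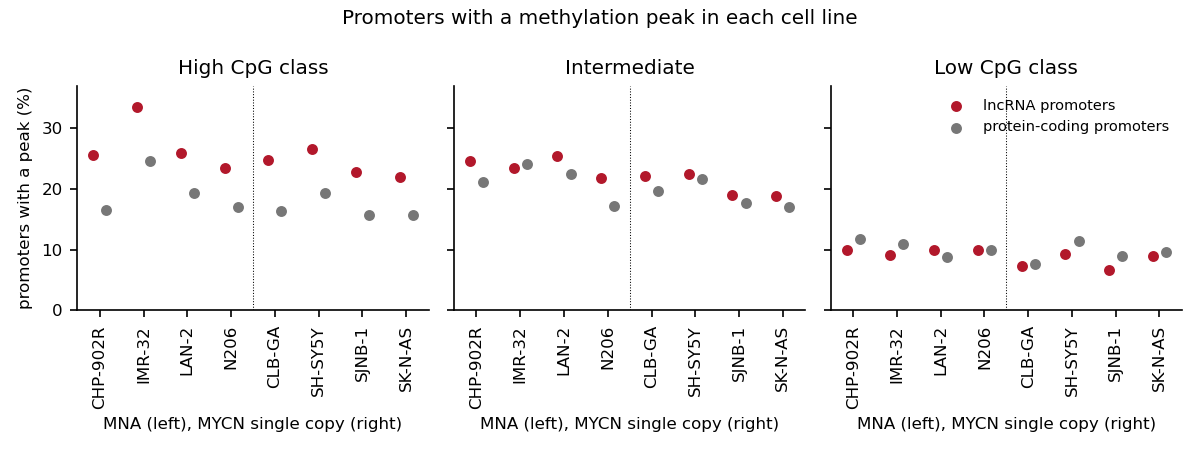
Percentage of promoters with a peak (vertical axis) in each cell line for lncRNA (red) and protein-coding (grey) promoters of the high, intermediate and low CpG class. In the high class the lncRNA point is above the protein-coding point in each of 8 lines, and IMR-32 has the highest values of both, 33.5% and 24.6%.

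Promoters were also compared by the number of CpG in the window, where lncRNA promoters were the higher ones at low numbers too, unlike in the low class. Between 60 and 79 CpG, a peak was found at 29.7% ± 2.79 of 1106 lncRNA and 19.95% ± 2.38 of 1701 protein-coding promoters, a difference of 9.70 ± 2.77 points. Between 80 and 119 CpG the shares were 28.2% and 18.9%. The difference fell to 2.52 points at 160 CpG or more, and to 1.32 points between 10 and 19. In each range from 10 CpG upward the lncRNA share was the higher one in 8 of 8 lines. Under 10 CpG it was higher in 4 lines, where both shares were under 1%.

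**Figure D3:**
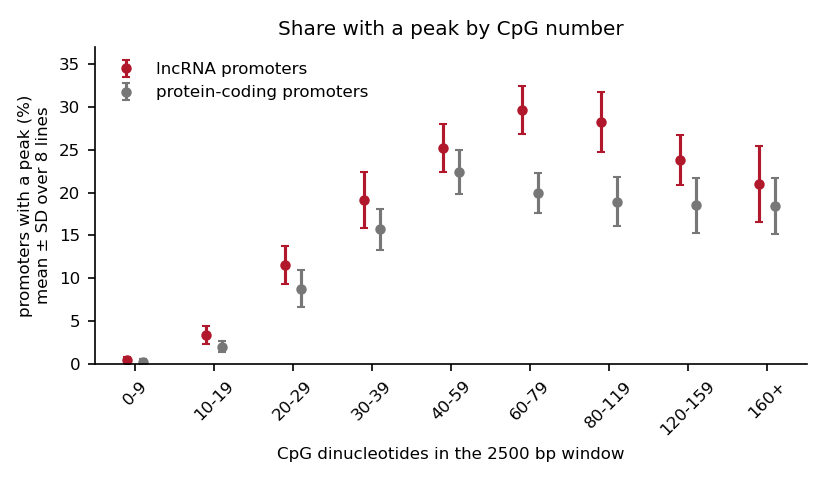
Percentage of promoters with a peak (vertical axis, mean ± SD over 8 lines) by the number of CpG in the 2500 bp window (horizontal axis) for lncRNA (red) and protein-coding (grey) promoters. The lncRNA points peak at 29.7% between 60 and 79 CpG, and the protein-coding points stay between 18.4% and 22.4% from 40 CpG upward.

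The peaks of high-class promoters lay at different places in the window. At lncRNA promoters the percentage covered by a peak rose towards the TSS and was highest, 10.5%, at 125 bp downstream. At protein-coding promoters it was lowest, 3.05%, at 125 bp upstream and higher in the flanks. Within 250 bp of the TSS, 9.81% ± 2.40 of the bases of lncRNA and 3.19% ± 1.13 of those of protein-coding promoters were covered. The difference of 6.62 points held in 8 of 8 lines (exact sign-flip permutation test, p = 0.0078, a comparison chosen after the profile was seen).

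Line by line, the covered share near the TSS of high-class lncRNA promoters was 7.91% in N206, 11.7% in LAN-2, 14.3% in IMR-32 and 10.4% in CHP-902R. It was 10.5% in SH-SY5Y and 7.06% in SK-N-AS, while CLB-GA had 8.57% and SJNB-1 8.06%. At protein-coding promoters the highest of the 8 lines was IMR-32, at 5.40%, which is below the lowest lncRNA value. The region near the TSS was covered more than the rest of the window at lncRNA promoters, by 2.98 points in the high class and 0.990 in the others (exact p = 0.0078 for each), and less at high-class protein-coding promoters, with a difference of -1.16 points. In the intermediate class cover was highest just downstream of the TSS at both, 7.77% at lncRNA and 7.68% at protein-coding promoters, and in the low class cover at the TSS was 1.81% and 2.56%.

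**Figure D4:**
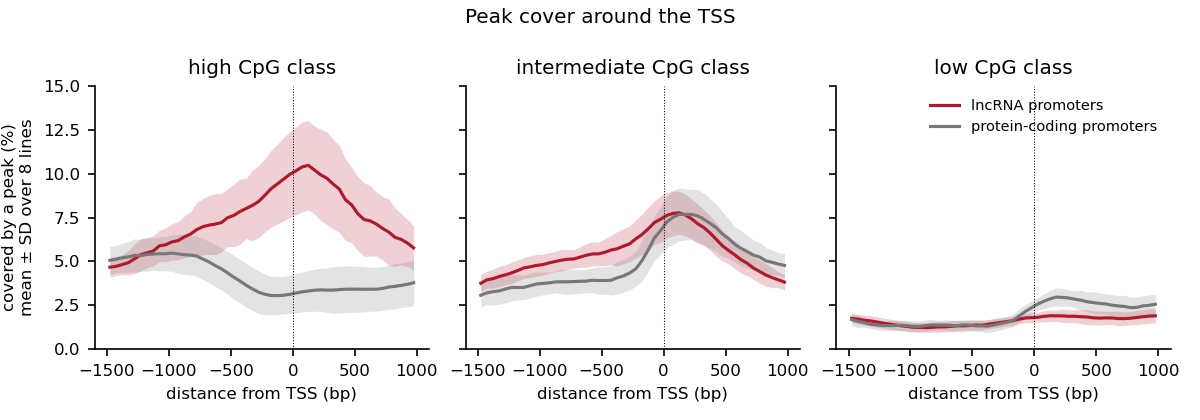
Percentage of promoters covered by a peak (vertical axis) at each distance from the TSS (horizontal axis, bp) by CpG class, for lncRNA (red) and protein-coding (grey) promoters. Lines are means over 8 lines and bands 1 SD. In the high class the lncRNA curve rises to 10.5% near the TSS where the protein-coding curve falls to 3.05%.

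Many lncRNA genes start inside protein-coding genes, whose bodies are often methylated. The TSS lay in such a body on the opposite strand (antisense) at 4023 lncRNA promoters, on the same strand at 1282, on both at 136, and outside any at 9376. A peak was found at 16.9% ± 1.85 of antisense, 15.04% ± 2.51 of same-strand and 15.1% ± 1.53 of intergenic promoters. Antisense exceeded same-strand promoters by 1.90 points in 8 of 8 lines (exact p = 0.0078). In the high class the mean shares had the reverse order, at 22.3% of 552 antisense and 29.6% of 89 same-strand promoters. They were 22.6% and 21.1% in the intermediate class and 11.6% and 9.45% in the low class. Promoters in gene bodies exceeded intergenic ones by 1.45 points in 8 of 8 lines (exact p = 0.0078), but the difference turned to -0.372 points when a score of at least 100 was required (exact p = 0.0625). It also depended on class. In the low class it was 3.36 points (8 of 8 lines), in the intermediate class 0.048 points (4 of 8 lines, exact p = 0.945) and in the high class -3.14 points, where intergenic promoters were higher in 8 of 8 lines. Among intergenic promoters, the 800 with a protein-coding TSS within 10 kb carried a peak at 17.4%, and the 4141 with none within 100 kb at 12.7%, a difference of 4.72 points in 8 of 8 lines (exact p = 0.0078). In the high class these shares were 26.8% and 27.5%.

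By chromosome, the share with a peak was highest on chromosomes 7 (19.6% ± 3.42), 1 (19.1% ± 4.36) and 17 (18.9% ± 3.18) and lowest on chromosomes 4 (12.1% ± 2.54) and 6 (12.3% ± 2.08). The high class made up 19.7% of lncRNA promoters on chromosome 7 and 8.74% on chromosome 4. Single lines departed from the rest on some chromosomes. On chromosome 15 the share ran from 7.74% in SJNB-1 to 24.6% in IMR-32, and on chromosome 1 from 14.2% in CLB-GA to 27.2% in LAN-2. The DNA copy number of each line was not analysed here, and its part in these values was not tested.

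The design sets the MNA lines against the *MYCN* single copy lines. lncRNA promoters carried a peak at 16.8% ± 0.733 in MNA and 14.4% ± 1.29 in *MYCN* single copy lines (SD, n = 4 each), a difference of 2.41 points that did not pass the two-sided exact permutation test (p = 0.0571, where the smallest p of 4 against 4 is 0.0286). The lists were longer in MNA lines, with 88496 to 112412 peaks against 70816 to 86079. With every list cut to the 70816 peaks of the shortest, the difference was -0.0709 points. Of all peaks of a line, 2.60% ± 0.226 lay in lncRNA promoters in MNA and 2.67% ± 0.196 in *MYCN* single copy lines (exact permutation test, p = 0.600). By class the differences were 3.05 points in the high, 3.19 in the intermediate and 1.75 in the low class (exact p = 0.286, 0.0857 and 0.0571). The high-class difference was 0.917 points without IMR-32. The overlap of the promoters with a peak between a pair of lines (Jaccard index, shared over all) was 0.257 within and 0.256 between the *MYCN* groups (exact permutation test, p = 0.857).

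Few lncRNA promoters divided the groups. A peak in all 4 MNA lines and in no other line was found at 15 (0.101%), against 0.108% of all autosomal genes. The opposite pattern was found at 2 (0.0135%), against 0.0343% of all autosomal genes. Each of these 17 has the smallest Fisher's exact p that the design allows, 0.0286, and 0 passed after Benjamini-Hochberg adjustment over the 14817 promoters (adjusted p = 1 by Fisher's exact test). Without CHP-902R, the counts were 29 (0.196%) and 6 (0.0405%), against 0.294% and 0.0604% of all autosomal genes. Without N206, the count for MNA was 49, and without SK-N-AS, that for *MYCN* single copy was 23. Fewer lines set fewer conditions, and the shares over all autosomal genes were not computed for these last counts, so they say nothing particular to lncRNA promoters.

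The leading promoter with peaks in MNA lines only was *GLUD1P3*, with scores of 124 in N206, 161 in LAN-2, 164 in IMR-32 and 159 in CHP-902R. Its peaks began 920 to 968 bp downstream of the TSS and ran past the end of the window. These scores thus belong mostly to the region beyond the promoter window. *LINC02788*, of the high class, had scores of 77.0, 213, 184 and 77.5 in the same order. *EPIC1*, a lncRNA known to bind the MYC protein, had scores of 282 in LAN-2 and 55.2 to 160 in the others. Its lower scores, in CHP-902R and IMR-32, were near the lowest that the lists hold. The IMR-32 peak of *EPIC1* also lay on the other side of the TSS from the peaks of the other MNA lines. *LINC00513*, *LINC01397*, *C5orf34-AS1* and *LINC00545* had scores from 55.6 to 151. The *LINC01397* peaks of LAN-2 and CHP-902R lay on opposite sides of the TSS. The window of *C5orf34-AS1* is found once in the genome at only 61.4% of its 45 bp positions. In *MYCN* single copy lines, *LINC02342* had scores of 86.0 in SK-N-AS, 63.3 in CLB-GA, 63.6 in SJNB-1 and 93.3 in SH-SY5Y, and *ENSG00000291189*, of the high class, ran from 55.5 to 77.99. These scores were all below those of *GLUD1P3*. The SH-SY5Y peak of *ENSG00000291189* lay on the other side of the TSS from the peaks of the other *MYCN* single copy lines. A promoter was thus counted as dividing the groups by its window, and its peaks need not lie at the same place.

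**Figure D5:**
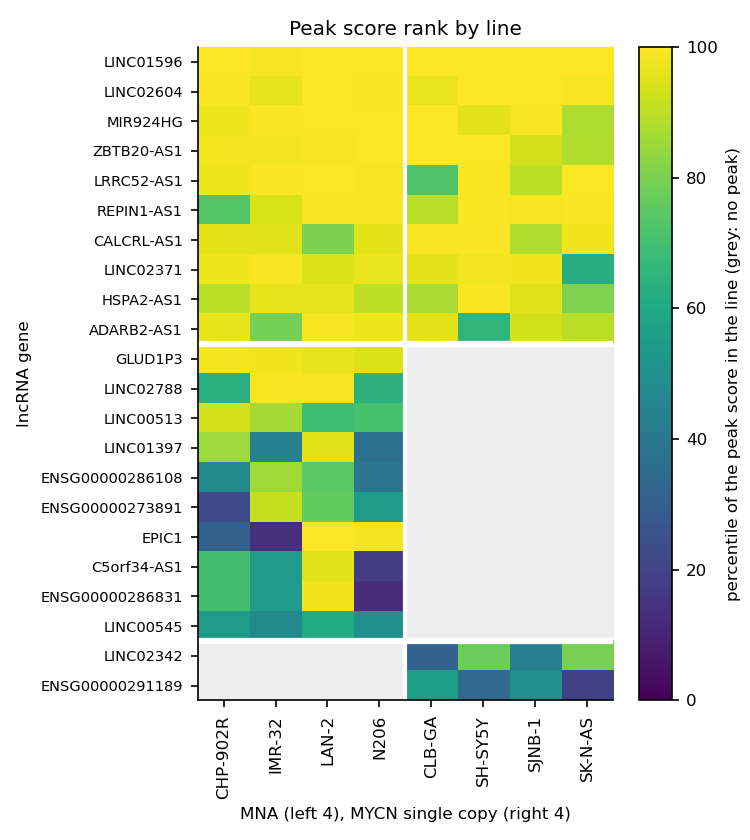
Percentile of the highest peak score in each window among all peaks of the line (color, grey where there is no peak) for named lncRNA promoters (rows) in 8 lines (columns). The top 10, of genes with a symbol, have a peak in all lines, the next 10 in MNA lines only and the last 2 in *MYCN* single copy lines only, and the first row is above the 98th percentile in each line.

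The promoters near *MYCN* lie in or beside the amplified region of MNA lines, so their peak scores and DNA copy number cannot be told apart. Of the 17 lncRNA promoters within 1 Mb of *MYCN*, 13 had a peak in at least 1 line and none divided the groups. *GACAT3* had scores of 802 in CHP-902R, 85.8 in IMR-32 and 1958 in LAN-2, no peak in N206, and 60.3 to 108 in the *MYCN* single copy lines. *LINC01804* scored 561, 705 and 770 in CHP-902R, IMR-32 and LAN-2, had no peak in N206, and scored 55.5 to 109 in the *MYCN* single copy lines. *MYCNUT*, upstream of *MYCN*, had a peak only in CHP-902R (86.6) and IMR-32 (169). *ENSG00000285354* scored 1130.1 in N206, 479 in LAN-2 and 78.1 in IMR-32, had no peak in CHP-902R, and scored up to 64.8 in *MYCN* single copy lines. *ENSG00000224400* had a peak in N206 only (623). *ENSG00000224194* scored 510 in CHP-902R and 627 in LAN-2, but 62.9 in IMR-32 and 52.7 in N206. Each MNA line thus held at least 1 of the 17 promoters with a score of 300 or more, and no *MYCN* single copy line did. This limit was chosen after the values were seen. Some of these promoters were shared between MNA lines, such as *LINC01804* in CHP-902R, IMR-32 and LAN-2, and others were not.

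Of the promoters with a peak in all lines, the 10 of genes with a symbol and the highest mean score percentile are named, and genes with an identifier only that rank among them are left out. *LINC01596* was first among all 137. Its scores were 388 in N206, 614 in LAN-2, 189 in IMR-32, 572 in CHP-902R, 417 in SK-N-AS, 266 in CLB-GA, 320.1 in SJNB-1 and 271 in SH-SY5Y, and 83.1% of its 45 bp positions occur once in the genome. *LINC02604* ran from 147 in IMR-32 to 329 in LAN-2, and *MIR924HG* from 98.0 in SK-N-AS to 323 in N206. *ZBTB20-AS1*, antisense to the transcription factor gene *ZBTB20*, ran from 99.95 in SK-N-AS to 291 in N206. *REPIN1-AS1*, *HSPA2-AS1* and *ADARB2-AS1* are antisense to protein-coding genes too, with lowest scores of 87.2, 87.7 and 81.3. *LRRC52-AS1*, *CALCRL-AS1* and *LINC02371* complete the 10 with a symbol. Of all 137, 40 have a symbol and 91 have at least 95% unique 45 bp positions.

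Imprinted lncRNAs are expressed from the allele of 1 parent and many lie at regions methylated on the other. Of 17 imprinted lncRNA promoters, 14 had a peak in at least 1 line, 6 in 4 or more and 0 in all 8, with a median of 2 lines, against a median of 0 lines over all lncRNA promoters. The share with a peak was 82.4%, beside 47.9% over all, and that in 4 or more lines 35.3%, beside 12.2%. Of the list 52.9% is of the high class, and over all high-class lncRNA promoters these shares were 63.2% and 24.0%. *GNAS-AS1* had a peak in 6 lines, with scores from 62.3 in SJNB-1 to 192 in N206 and none in CLB-GA and SH-SY5Y. *KCNQ1DN*, *DLGAP2-AS1* and *LINC00664* also had one in 6 lines. *MESTIT1*, antisense to *MEST*, had a peak in the 4 MNA lines (50.4 to 223) and in SK-N-AS (61.0). *HYMAI*, at the *PLAGL1* locus, had one in 5 lines. *KCNQ1OT1*, which silences neighbouring genes in cis, had one only in IMR-32 (74.7) and LAN-2 (98.4). *MEG3*, a growth-inhibiting lncRNA, had one in N206 (63.7), CLB-GA (107) and SJNB-1 (72.8). *H19*, *MEG9* and *PWRN1* had none, and only 39.8% of the 45 bp positions of *PWRN1* are unique. Peaks at imprinted promoters thus varied between lines.

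Of 27 promoters of lncRNAs studied in NB, 14 had a peak in at least 1 line, 4 in 4 or more and 1 in all 8, with a median of 1 line. These shares, 51.9% in at least 1 line and 14.8% in 4 or more, are near the 47.9% and 12.2% over all lncRNA promoters. However, 70.4% of the list is of the high class, and over all high-class lncRNA promoters the shares were higher, at 63.2% and 24.0%. The promoter in all 8 lines was that of *PVT1*, the neighbour of *MYC*, with scores of 113 in N206, 93.5 in LAN-2, 87.8 in IMR-32, 56.8 in CHP-902R, 72.3 in SK-N-AS, 165 in CLB-GA, 76.4 in SJNB-1 and 75.1 in SH-SY5Y. *DLEU2*, the host of a microRNA cluster deleted in leukemia, and *SOX21-AS1* had a peak in 5 lines, and *LINC00467* in 4. *CASC15*, a neighbour of *NBAT1*, had one in CHP-902R (56.7), IMR-32 (119) and SH-SY5Y (82.3). *GATA2-AS1*, *GATA3-AS1* and *HAND2-AS1* lie beside transcription factor genes of the sympathetic lineage, and no line had a peak at any of them, although their windows hold 227, 157 and 92 CpG. *TBX2-AS1*, of the same list and also named after a transcription factor gene, had a peak in SH-SY5Y (55.6). *NBAT1*, *MALAT1*, *DANCR* and *LINC00461* had none. For these windows the lists do not tell an unmethylated promoter from one below the calling threshold.

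Hosts of small nucleolar RNAs (*SNHG* genes) had a peak in at least 1 line at 15 of 17 promoters, in 4 or more at 4 and in all 8 at 1, with a median of 2 lines. That is 88.2% with a peak, beside 47.9% over all lncRNA promoters, in a list of which 82.4% is of the high class, beside 12.9% over all. Over all high-class lncRNA promoters 63.2% had a peak in at least 1 line. In 4 or more lines the share was 23.5% of the list and 24.0% of the high class. The promoter in all 8 lines was that of *SNHG28*, with scores from 88.4 in N206 to 253 in LAN-2. *SNHG15* had a peak in 5 lines, with no score over 87.8, and *SNHG17* had none. Among 70 hosts of microRNAs, 38 had a peak, 11 in 4 or more lines and 1, *MIR924HG*, in all 8, with a median of 1 line. Their shares of 54.3% and 15.7% are near those over all lncRNA promoters, 47.9% and 12.2%. *MIR219A2HG* had a peak in all lines but IMR-32 (85.0 to 196), *MIR155HG*, the host of an immune microRNA, in all but SK-N-AS (58.9 to 142), and *MIR122HG*, the host of a liver microRNA, in all but SH-SY5Y (52.6 to 99.7). *MIR17HG*, the host of a *MYCN*-induced microRNA cluster, and *MIR34AHG*, the host of a p53 target, had no peak in any line.

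Of 7 *HOX* cluster lncRNA promoters 4 had a peak, 2 in 4 or more lines, with a median of 1 line, or 57.1% and 28.6% beside 47.9% and 12.2% over all lncRNA promoters. Of the *HOX* list 42.9% is of the high class, and over all high-class lncRNA promoters the shares were 63.2% and 24.0%. *HAGLROS*, at the *HOXD* cluster, had scores of 178, 286, 154 and 55.9 in N206, LAN-2, IMR-32 and CHP-902R and of 70.6 in SJNB-1, so the groups overlapped. *HOXB-AS3* had a peak in 4 lines, while *HOXA-AS2*, *HOXC-AS1* and *HOXB-AS2* had none. Widely expressed lncRNAs had a peak at 7 of 11 promoters, in 4 or more lines at 2 and in all 8 at 0, with a median of 2 lines. The 63.6% with a peak stand beside the same 47.9%. Of this list 72.7% is of the high class, and over all high-class lncRNA promoters 63.2% had a peak in at least 1 line. *NORAD*, which protects genome stability, had one in 5 lines (52.4 to 121) and *TERC*, the RNA of telomerase, in 4 (52.4 to 88.3). A list drawn up as germline or cancer-testis type also named *PCA3*, *UCA1* and *HULC*, so its label does not hold for all of it. Its lncRNAs had a peak at 9 of 22 promoters, in 4 or more lines at 2 and in all 8 at 0. The median was 0 lines, and *LINC00668* had a peak in 7 lines. The shares of 40.9% and 9.09% are near those over all lncRNA promoters.

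By naming class, 589 of 1151 genes named antisense (-AS), 16 of 34 named divergent (-DT) and 981 of 2114 named LINC had a peak in at least 1 line, or 51.2%, 47.1% and 46.4%. These shares stand beside 47.9% over all lncRNA promoters. A peak in all 8 lines was found at 16 of the 1151, 0 of the 34 and 18 of the 2114. Over all 14817 lncRNA promoters it was found at 137 (0.925%). Of the -DT list 70.6% is of the high class, and over all high-class lncRNA promoters 63.2% had a peak in at least 1 line.

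Some promoters had a peak in 1 line only. Their number was 354 in N206, 393 in LAN-2, 436 in IMR-32 and 351 in CHP-902R, and 289 in SH-SY5Y and 305 in SK-N-AS, while CLB-GA had 254 and SJNB-1 226, and each MNA line had more than any *MYCN* single copy line. As a share of the promoters with a peak in the line the groups overlapped, with 13.9% in CHP-902R and 14.7% in SK-N-AS. The strongest with a symbol were *LINC01628* in IMR-32 (score 296), *LINC03026* in LAN-2 (199), *NUBPL-DT* in SJNB-1 (148), *CASC8* in SK-N-AS (146), *KDM4A-AS1* in SH-SY5Y (145), *FAM242A* in CHP-902R (140.2), *LINC02458* in CLB-GA (130.1) and *SEC62-AS1* in N206 (121). *NUBPL-DT* and *KDM4A-AS1* were of the high class.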

How the data were processed

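MBD-seq was performed on 8 NB cell lines, 1 sample each. Per the labels and methods, DNA sheared to about 200 bp was captured with MBD2 and sequenced in pairs. The authors mapped the reads to GRCh37 with Bowtie 0.12.7, and MACS was run on every line separately. The deposited score of a peak grows as its MACS p-value falls. The options of MACS and an input control are not given in the sources used here. The lists hold no read counts, so depth per line is unknown and the absence of a peak is not proof of low methylation.

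Windows, CpG classes and 45 bp uniqueness were computed from GENCODE release 44 and GRCh37 with Python 3.11.15, numpy 2.4.6, pandas and numba. The *MYCN* groups were tested by two-sided exact permutation of the lines (4 against 4), and kinds of promoter with exact sign-flip permutation tests over the 8 lines, whose p-values measure the spread between lines. Adjusted p-values follow Benjamini and Hochberg over 16 tests, where p = 0.0078 becomes 0.0179 and the MNA difference 0.0831, and over 5 further tests of place, where it becomes 0.00977 (exact permutation tests). Differences are percentage points. On simulated lists, 200 of 200 planted dividing promoters were recovered among 14817. Planted peaks lay at the TSS and other peaks were kept out of those windows, so recovery checks the overlap step only. It does not measure sensitivity on real lists. Members and lists were chosen with earlier results of these data known, and the CpG ranges, place, chromosome and TSS profile comparisons after seeing the data. The genes named are those of the lists, at most 10 with a symbol and a peak in all 8 lines and at most 10 per direction that divide the groups, by mean score rank, those within 1 Mb of *MYCN*, and the 2 strongest with a symbol seen in 1 line only. Printed sequences were centred on the shared peak interval cut to the window, so some promoters with no shared interval were passed over, some sequences are not reported here, and *NBAT1* was added after its values were seen.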

Additional observations from a re-analysis of the deposited data

Results flagged for a closer look

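In 36 groups of 4 lines examined for a value apart from the rest, 2 were found, and chance gives about 1 in 20. IMR-32 stood below the other MNA lines in the share of low-class lncRNA promoters with a peak, at 9.17%, with its gap to the nearest line at 0.952 of the range of the group. SH-SY5Y stood above the other *MYCN* single copy lines in the share of protein-coding promoters with a peak, at 18.3%, with a gap of 0.846 of the range. The 10 contrasts made within lines were also compared between the *MYCN* groups, and the smallest exact permutation p was 0.114, for peak cover near the TSS of high-class lncRNA against protein-coding promoters (7.37 points in MNA and 5.87 in *MYCN* single copy lines).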

How the results depend on the processing

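Values are percentage points or counts of promoters. With a score of at least 100, the intermediate-class lncRNA against protein-coding difference was -0.0335, the low-class one passed at -0.435, the gene body against intergenic difference was -0.372, the dividing promoters numbered 5 and 1, those with a peak in all lines 3, and the Jaccard difference within minus between groups was -0.00123. With equal lists, the MNA minus single copy difference was -0.0709 overall and -0.584 in the intermediate class, the low-class kind difference passed at -0.938, the gene body difference was 0.726 and no longer passed, the dividing promoters were 8 and 7, and the Jaccard difference -0.00121. By peak midpoint, the overall kind difference was -0.294 (exact p = 0.648) and 1 promoter had peaks in single copy lines only. With 500 bp on each side, the overall kind difference was 1.19, the low-class one passed at -1.05, the gene body difference was 0.0995, the dividing promoters were 9 and 1, those in all lines 66, and the Jaccard difference -0.00174. With any transcript start, the kind differences were -11.8, -12.3 and -12.7 from high to low class, the gene body difference -0.196, the MNA difference in the low class passed at 2.08, and 228 promoters had a peak in all lines, as genes with more starts then have more windows. With overlapping windows merged, the Jaccard difference was -0.000436. In windows at least 95% unique, an alternative added after seeing the data, the low-class kind difference passed at -1.86, 8 promoters had peaks in MNA lines only and 91 in all lines. Without lncRNA promoters near any coding transcript start, also added, the low-class kind difference passed at -1.42 and the gene body difference was 0.744 and no longer passed.

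With 1 line left out at a time, the MNA difference ranged from 1.92 to 2.95, passing without SH-SY5Y, in the high class from 0.917 to 4.26, lowest without IMR-32, and in the low class from 1.28 to 2.16, passing without SH-SY5Y. The share of peaks in lncRNA promoters differed by -0.177 to 0.00367, above 0 without LAN-2. The low-class kind difference ranged from -1.29 to -0.802, passing without LAN-2, and the Jaccard difference from -0.00133 to 0.00369. Promoters with peaks in MNA lines only numbered 22 to 49, over 1.5 times the count with all lines without any of CHP-902R, IMR-32, LAN-2, N206, CLB-GA, SH-SY5Y and SK-N-AS, and those in single copy lines only 5 to 23, so without each of the 8 lines, as fewer lines set fewer conditions. The high-class kind difference, the high against low class difference, the difference from windows 10 kb upstream and the cover near the TSS kept direction and threshold under the alternatives that were run for them, apart from the high-class kind difference with any transcript start.

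The upstream comparison was not run with any transcript start or merged windows, nor the cover near the TSS with midpoints, other windows, any start or merged windows, and repeats could not be compared because the genome sequence marks none. Kinds of promoter were compared in pairs within each line. MNA and *MYCN* single copy lines were not paired with each other, because they are different cell lines.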
